A study of Mus musculus with 12 samples.

Results

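TRAV10 clonotypes are the TCRα chains of newly developed thymic Treg whose variable segment was named TRAV10, TRAV10D or TRAV10N, 3 near-identical copies in the Tcra locus. They were taken as all table rows with one of these names whose CDR3, the loop that joins the V to the J segment, was in frame and free of stop codons. This gave 442 of the 20998 clonotypes in the tables, a clonotype being a V segment, a CDR3 amino acid sequence and a J segment, with 7329 of the 199248 TCRα mRNA molecules counted by unique molecular identifiers (UMIs) in 12 libraries. TRAV10 and its largest clonotype were selected on measured values, the high share that this clonotype takes of the libraries, so that level is given as a description without a test. The 12 libraries came from mice of 3 weeks of age, 4 mice for each genotype, with 100000 sorted CD4+CD8-Thy1.1+GFP+ thymocytes per library. All 12 mice were B6 and carried Rag2-Gfp, which marks recently formed thymocytes, the Foxp3-Thy1a reporter, the Kaa Tcrb transgene and a single functional Tcra allele (Tcra+/null). The genotypes differed in the cytokine locus, with wild-type littermates (wt), mice that lack IL-2 (Il2°) and mice that lack IL-15 (Il15°). Because every cell expressed the same transgenic TCRβ chain, a public clonotype of the response to the myelin protein MOG, the repertoire is that of TCRα chains which can pair with this β chain, and the tables hold no Foxp3, Cd4 or Thy1 reads with which the sorted cell type could be checked.

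A TCRα chain forms when one of many V segments of the locus is joined to one of the many J segments, with bases trimmed or added at the junction. The first joins of a locus use V and J segments that lie close together, and later joins on the same allele use V segments further upstream with J segments further downstream. Treg are the Foxp3-expressing T cells that restrain autoimmunity, and their thymic development depends on recognition of self-peptides by the TCR and on cytokines such as IL-2 and IL-15.

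On chromosome 14 of GRCm38 (the build named mm10 in the labels), TRAV10D lies at 52810934 to 52811496, TRAV10N at 53122114 to 53122610, TRAV10 at 53505727 to 53506286 and TRAJ31 at 54187895 to 54187951, all on the plus strand. The most 3′ of the 3 copies is therefore the one called TRAV10. TRAJ12 at 54206553 to 54206610 and TRAJ9 at 54209393 to 54209450 lie downstream of TRAJ31, and the constant gene Trac at 54220521 to 54224206 follows. Over their aligned GENCODE transcripts the copies were 98.3% to 99.3% identical and their last 60 bases were the same, so the CDR3 itself cannot tell which copy was joined, and the copy names in the tables rest on the V sequence upstream of it.

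The largest clonotype shows how TRAV10 and TRAJ31 meet. The germline ends and the nucleotide versions of this clonotype are printed 5′ to 3′, and capitals mark the bases that match neither the germline V nor the germline J segment (GENCODE M21).
TRAV10 end from its last cysteine codon: tgtgcagcaagca
TRAJ31 start to the end of the CDR3: ggaatagcaataacagaatcttcttt
largest clonotype, version 1: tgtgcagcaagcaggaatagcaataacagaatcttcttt
largest clonotype, version 2: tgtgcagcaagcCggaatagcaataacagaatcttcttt
largest clonotype, version 3: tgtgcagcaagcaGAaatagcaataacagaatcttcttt
largest clonotype, version 4: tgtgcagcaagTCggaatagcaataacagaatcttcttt
Version 1 is the 13 bases of the V end followed directly by the 26 bases of the J start, with 0 unmatched bases. All versions encode the same CDR3, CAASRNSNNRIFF, and those printed differ in the codons for serine and arginine around the junction.

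This CDR3 was found in 12 nucleotide versions with 4027 UMIs in all. Versions 1 and 2, which hold 0 and 1 unmatched base, were present in all 12 libraries. By library, version 1 made up 46.9% ± 5.29 (SD, n = 12) of the UMIs of the clonotype and version 2 made up 41.0% ± 4.77, and together they held between 80.1% and 94.7%. By genotype, version 1 made up 47.3% ± 8.55 in wt, 48.0% ± 4.23 in Il2° and 45.4% ± 2.58 in Il15° libraries (n = 4 each). Version 3 was counted in 10 libraries and version 4 in 9. Version 4 was at 0 UMIs in 3 of the 4 wt libraries and held 6 UMIs in the other, against 4 to 22 UMIs in every Il2° library and 6 to 48 in every Il15° library. This difference was seen after the values were known and was not tested.

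**Figure D1:**
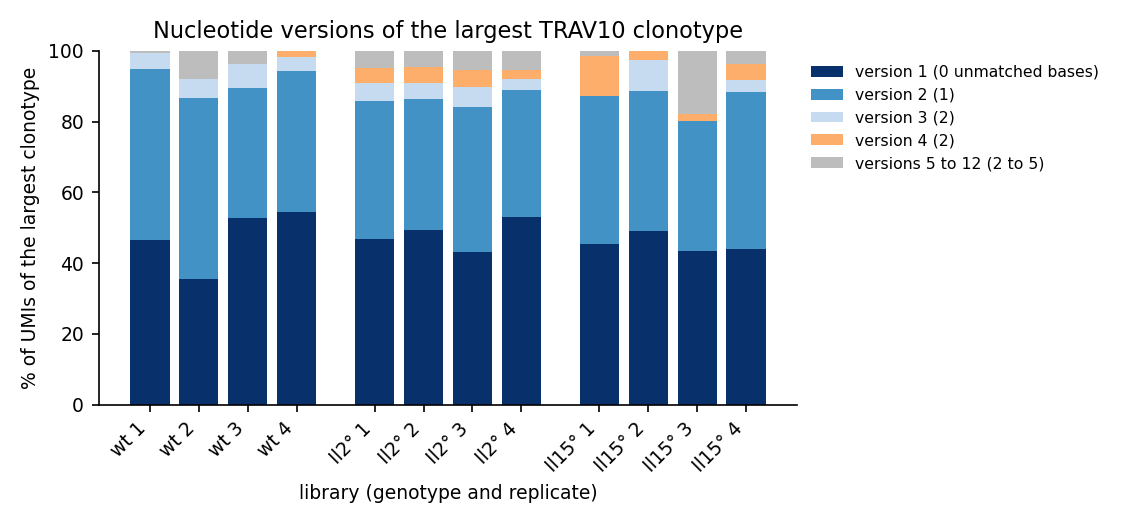
Share of the UMIs of the largest TRAV10 clonotype (vertical axis, percent) held by its nucleotide versions in each of the 12 libraries (horizontal axis), with the number of unmatched bases of each version in the legend. The bottom 2 segments, versions 1 and 2, fill at least 80.1% of every bar.

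Depth varied between 7625 and 25980 UMIs per library, and 3 UMIs, the limit that a count of 0 allows, correspond to 0.0115% to 0.0393% of a library. Intervals and limits of this kind cover counting error only. Libraries were not fully separate in their sequences. Of 8186 nucleotide sequences found in exactly 2 libraries, 6703 (81.9%) fell in only 10 of the 66 pairs of libraries, 7 pairs of the same genotype and 3 pairs of wt with Il2°. The commonest pattern was a single UMI in one library and several in the other. For in-frame TRAV10, 174 of 194 such sequences were in these 10 pairs. Their part in the results was not tested as a cause, and the shares by genotype, J pairing, junctions and copy names are also given without sequences found in exactly 2 libraries, an alternative chosen after seeing the data. TCRα chains of other thymocytes were rare, with 1 to 17 UMIs per library of TRAV11 with TRAJ18, the chain of invariant NKT cells, and 0 to 28 UMIs of TRAV1 with TRAJ33, that of MAIT cells.

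TRAV10 held a larger share of Il2° than of wt libraries, without overlap, but the difference did not pass the corrected test. It made up 2.27%, 3.27%, 3.79% and 3.53% of the UMIs in wt replicates 1 to 4. In Il2° replicates 1 to 4 it held 5.67%, 4.05%, 3.89% and 4.75%. For Il15° replicates 1 to 4 the shares were 3.79%, 3.06%, 4.62% and 3.60%. In RNA from sorted cells, more cells with these chains and more Tcra mRNA per cell cannot be told apart. Every Il2° library was above every wt library, by 1.37 percentage points in the mean (exact 2-sided Mann-Whitney test, p = 0.0286, the smallest p that 4 against 4 libraries allow; 0.0857 after Benjamini-Hochberg adjustment over the 3 comparisons). Unless another comparison also reached it, this smallest exact Mann-Whitney p could not adjust below 0.0857, whatever the size of the difference. The Il15° libraries overlapped the wt libraries (exact adjusted p = 0.486) and the Il2° libraries (exact adjusted p = 0.171). Among the 45 V segment groups compared between Il2° and wt, copies merged by name, 2 were higher in Il2° without overlap (4.44%), TRAV10 and TRAV9-3, the latter named after its values were seen. For Il15° against wt the share of groups that were higher without overlap was 2.17%, and for Il15° against Il2° the share that were lower without overlap was 6.67%; TRAV10 was in neither. In the opposite direction, 1 group was lower in Il2° than in wt without overlap, and 0 were lower in Il15° than in wt. Groups higher in Il15° than in Il2° without overlap numbered 3. Without sequences found in exactly 2 libraries, Il2° and wt overlapped (3.83% to 6.79% against 2.38% to 4.24%, exact adjusted p = 0.343).

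The wt and Il2° means ordered TRAV10 8th and 6th among 49 V segment groups. In wt libraries its mean of 3.22% lay between TRAV16 at 3.24% and TRAV6-5 at 3.08%, distances well inside its SD of 0.666. In Il2° libraries the mean of 4.59% ± 0.811 lay between 6.03% for TRAV4-4 and 4.19% for TRAV3-3, and in Il15° libraries 3.77% ± 0.648 placed TRAV10 7th. Among the 20 groups with a mean share of at least 1%, the 3 whose log2 share followed that of TRAV10 most closely over the 12 libraries were TRAV7-5 (Pearson r = 0.63), TRAV3-3 (r = 0.58) and TRAV14-2 (r = 0.41). These values describe shares that add up to 100% within a library and share its depth.

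**Figure D2:**
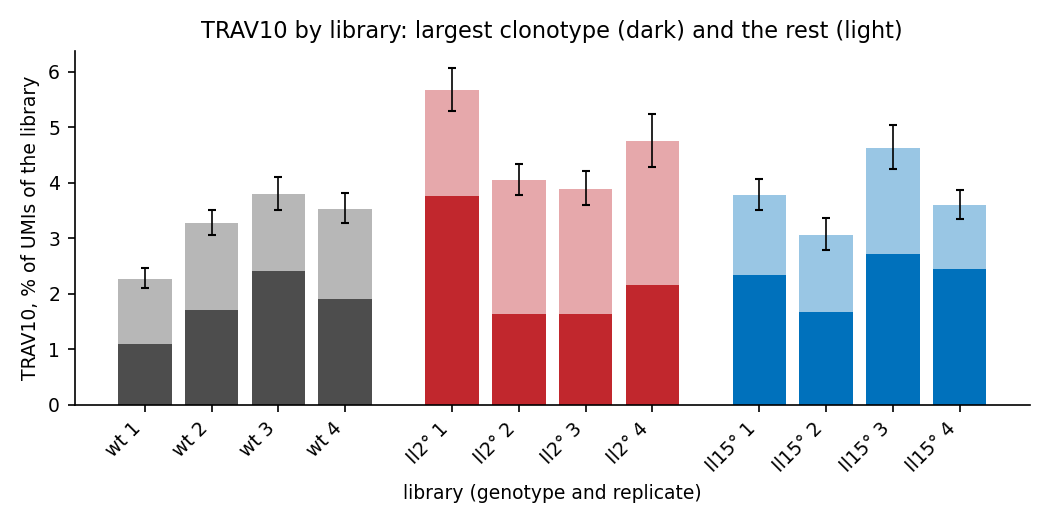
TRAV10 UMIs as percent of all UMIs of each library (vertical axis) for the 12 libraries (horizontal axis). Dark parts are the largest clonotype, light parts all other TRAV10 clonotypes, and bars at the top are 95% Wilson intervals of the total. The dark part is highest in Il2° replicate 1, at 3.76%, and the light part is larger in the Il2° than in the wt libraries.

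The largest clonotype, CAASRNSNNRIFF with TRAJ31, held 1.09%, 1.71%, 2.41% and 1.90% of wt replicates 1 to 4. In Il2° replicates 1 to 4 it held 3.76%, 1.64%, 1.63% and 2.15%, and in Il15° replicates 1 to 4 it held 2.33%, 1.67%, 2.72% and 2.45%. The genotypes overlapped, and the Il2° values were spread by 1 library far above its group. It ranked 1st among all clonotypes in 11 of the 12 libraries and 2nd in wt replicate 1, where the highest clonotype held 1.67%. Within TRAV10 it took between 40.5% and 68.2% of the UMIs. The same CDR3 was nearly absent from other V segments, with 6 UMIs in 2 libraries, 3 with TRAV5-4 and 3 with TRAV7-2.

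Leaving this clonotype out of numerator and denominator did not change the exact Mann-Whitney p of Il2° against wt, 0.0286. Its adjusted p fell from 0.0857 to 0.0429 because Il15° against Il2° then reached the same exact p. The other TRAV10 clonotypes held 1.19%, 1.59%, 1.42% and 1.66% of wt replicates 1 to 4. They held 1.99%, 2.45%, 2.30% and 2.65% of Il2° replicates 1 to 4, and 1.49%, 1.41%, 1.96% and 1.17% of Il15° replicates 1 to 4. The Il2° libraries lay above all wt libraries, with means of 2.35% ± 0.280 against 1.46% ± 0.208 (a ratio of 1.60; exact Mann-Whitney p = 0.0286, adjusted over the 3 comparisons 0.0429). They also lay above all Il15° libraries, whose mean was 1.51% ± 0.329 (exact p = 0.0286, adjusted 0.0429), although the lowest Il2° value of 1.99% and the highest Il15° value of 1.96% nearly met. Between Il15° and wt the means differed by 0.0454 percentage points with full overlap (exact adjusted p = 0.886).

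Leaving out the largest clonotype of each V segment group in the same way, 4.44% of groups were higher in Il2° than in wt without overlap, again TRAV10 and TRAV9-3. The share was 8.89% for groups lower in Il15° than in Il2°, which were TRAV10, TRAV2, TRAV6-7 and TRAV7-3, and 2.17% for groups higher in Il15° than in wt. Opposite to these, 1 group was lower in Il2° than in wt without overlap and 0 were lower in Il15° than in wt. Another 3 groups were higher in Il15° than in Il2° without overlap. Without sequences found in exactly 2 libraries the Il2° values of 1.81% to 2.26% still lay above the wt values of 1.14% to 1.47% (exact p = 0.0286, adjusted 0.0857), while 1 Il15° library, at 1.85%, reached into the Il2° range (exact adjusted p = 0.0857). With any 1 library left out, 3 against 4 libraries cannot give an exact p below 0.0571.

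**Figure D3:**
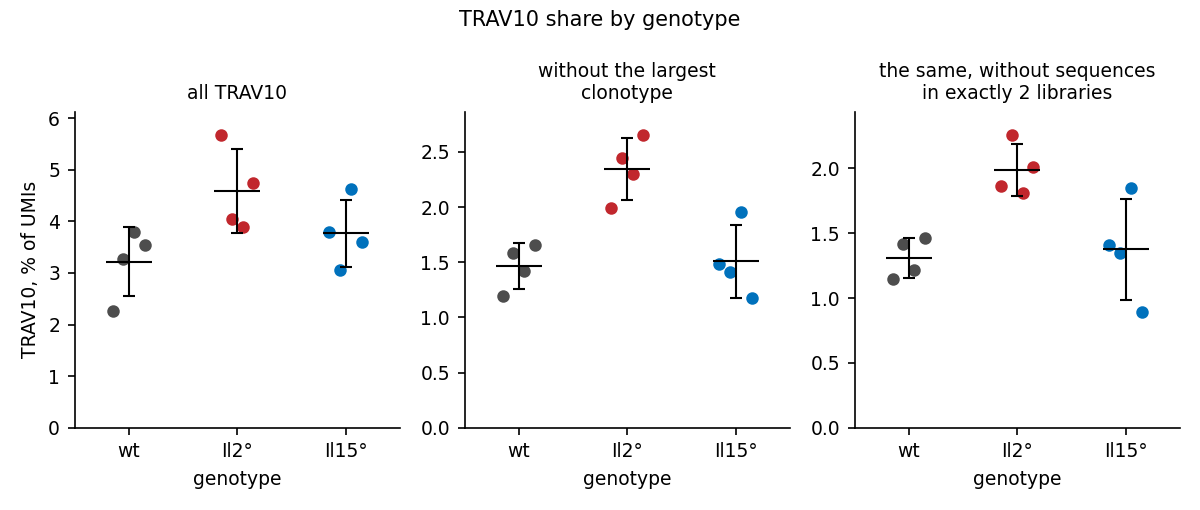
TRAV10 as percent of UMIs (vertical axes, starting at 0) in wt, Il2° and Il15° libraries (horizontal axes), with 1 point per library, the mean as a horizontal line and the SD as a bar (n = 4). From left to right the panels show all TRAV10, TRAV10 without the largest clonotype, and the latter without sequences found in exactly 2 libraries. In the last 2 panels the Il2° points lie above all wt points.

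The same direction was seen when each clonotype was counted once. TRAV10 made up 1.87%, 1.82%, 1.58% and 1.75% of the distinct clonotypes of wt replicates 1 to 4, against 2.02%, 2.34%, 2.58% and 2.75% in Il2° and 1.65%, 1.54%, 2.04% and 1.62% in Il15° libraries. The Il2° libraries did not overlap the wt libraries (exact p = 0.0286, adjusted 0.0857) and overlapped the Il15° libraries in 1 value (exact adjusted p = 0.0857). With clonotype numbers set to the depth of the smallest library, 7625 UMIs, the Il2° libraries stood apart from the wt and from the Il15° libraries (exact adjusted p = 0.0429 for each). Among V segment groups, 8.89% were higher in Il2° than in wt without overlap on this measure, TRAV10 among them, 6.52% were higher in Il15° than in wt, and 6.67% were lower in Il15° than in Il2°. Opposite to these, 2 groups were lower in Il2° than in wt without overlap and 0 were lower in Il15° than in wt. Another 4 groups were higher in Il15° than in Il2° without overlap.

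In the test across all V segment groups, TRAV10 did not pass the threshold. edgeR's quasi-likelihood test on UMI counts gave a log2 fold change of 0.34 ± 0.20 (SE) for Il2° against wt (Benjamini-Hochberg adjusted p = 0.330), where 2.22% of the 45 groups passed. For Il15° against wt it was 0.25 ± 0.19 (edgeR adjusted p = 0.715), where 0% of 46 groups passed (2 at an unadjusted p under 0.05; 0 by DESeq2 after adjustment). For Il15° against Il2° it was -0.12 ± 0.17 (edgeR adjusted p = 0.740), where 8.89% passed. These fold changes are relative to the TMM scaling, which set the median group at 0.08 in Il2° against wt; with library totals only, the median was 0.27 and TRAV10 0.53. Without the largest clonotype, an alternative added after seeing the data, edgeR gave 0.47 for Il2° against wt (adjusted p = 0.0943) and -0.44 for Il15° against Il2° (adjusted p = 0.186).

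TRAJ31 dominated the J pairing of TRAV10, mostly through the largest clonotype. It took 68.0% ± 9.08 (SD, n = 12) of TRAV10 UMIs, with 70.0% ± 8.47 in wt, 63.8% ± 11.8 in Il2° and 70.1% ± 7.54 in Il15° libraries, against 6.52% ± 0.470 of the UMIs of other V segments. With the largest clonotype left out, TRAJ31 still took 30.0% ± 11.1 of TRAV10 UMIs and was above the other V segments in 12 of 12 libraries (lowest 9.95%, against at most 7.62%). TRAJ9 was next, with 20.1% ± 7.82 against 7.06% ± 0.775, higher in 12 of 12 libraries. These J segments were picked as the ones most used with TRAV10 in the same libraries, so their excess is a description and no test is given. Without sequences found in exactly 2 libraries TRAJ31 took 37.1% ± 16.0 against 6.71% ± 0.572, and TRAJ9 took 19.1% ± 9.12 against 7.33% ± 0.778, each higher in 12 of 12 libraries. The remaining 35 of the 37 TRAJ segments found with TRAV10 each held less than 5% of its UMIs by mean in every genotype, TRAJ12 at 2.83%, TRAJ15 at 2.35%, TRAJ11 at 2.21% and TRAJ23 at 2.03% being the highest over all libraries, named after their values were seen.

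**Figure D4:**
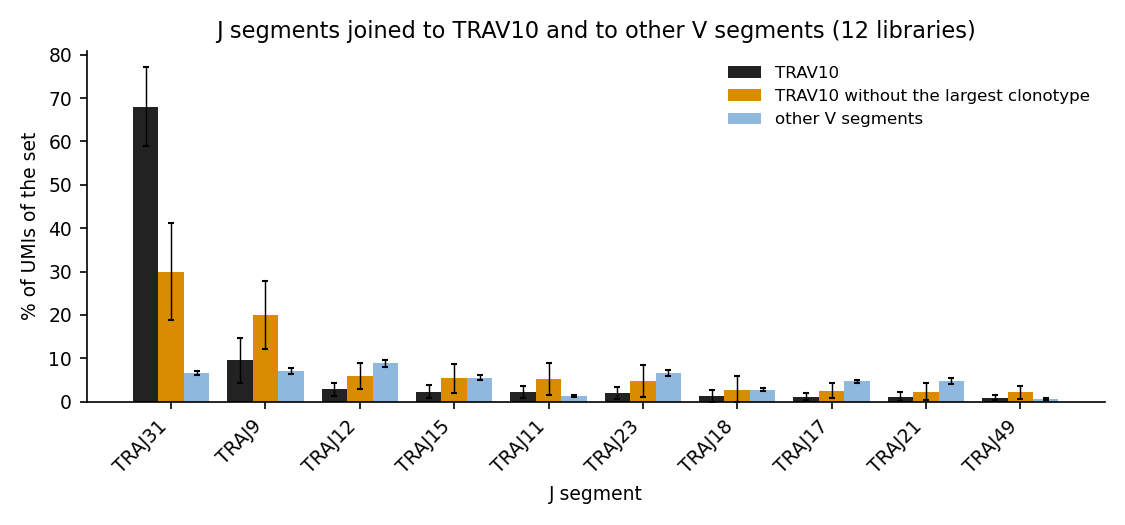
Share of UMIs (vertical axis, percent) of the 10 J segments most used with TRAV10 (horizontal axis), as mean and SD over 12 libraries, lower bars ending at 0. Black columns are all TRAV10, orange columns TRAV10 without the largest clonotype and blue columns all other V segments. The widest gaps between orange and blue columns are in TRAJ31, 30.0% against 6.52%, and TRAJ9, 20.1% against 7.06%.

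Most of the TRAV10-TRAJ31 chains formed a single family. Of 70 clonotypes with 5027 UMIs, 24 had a CDR3 of 13 residues that began with CAA and ended with NSNNRIFF, and these held 96.6% of the UMIs of the pair and 66.2% of all TRAV10 UMIs. By this definition they can differ from one another only at positions 4 and 5, the residues encoded around the junction. The main nucleotide form of the next clonotypes is given with unmatched bases in capitals, to show how few bases set them apart.
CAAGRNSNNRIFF: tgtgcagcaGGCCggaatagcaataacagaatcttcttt
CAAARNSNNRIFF: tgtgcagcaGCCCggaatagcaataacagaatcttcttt
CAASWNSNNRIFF: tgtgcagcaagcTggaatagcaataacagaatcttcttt
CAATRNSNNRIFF: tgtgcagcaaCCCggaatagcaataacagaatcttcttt
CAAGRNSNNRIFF was counted in 11 libraries with 216 UMIs over 13 nucleotide versions, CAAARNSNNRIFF in all 12 libraries with 130 UMIs over 11 versions, and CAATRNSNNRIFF in 10 libraries with 88 UMIs over 5 versions. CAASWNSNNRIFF differs from the largest clonotype by tryptophan in place of arginine at position 5 and had 130 UMIs, 98.5% of them in 1 version.

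The end RNSNNRIFF was taken from the largest clonotype and its relatives, so its share is a description with no test. With the largest clonotype left out, 49.3% ± 19.3 of TRAV10-TRAJ31 UMIs ended in this way, against 12.5% ± 2.56 of the TRAJ31 UMIs of other V segments, with the higher value in TRAV10 in 11 of 12 libraries. The exception was Il15° replicate 2, at 10.5% against 14.1%. Without sequences found in exactly 2 libraries the values were 50.4% ± 23.8 and 13.3% ± 1.89, again higher in 11 of 12.

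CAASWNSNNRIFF was the named TRAJ31 clonotype that differed most between genotypes. Its UMIs were 15, 30, 0 and 0 for wt replicates 1 to 4, then 21, 27, 22 and 7 for Il2° and 8, 0, 0 and 0 for Il15° replicates. It was thus found in every Il2° library and in 1 Il15° library. The log2 fold change of Il15° against Il2° was -3.40 ± 0.97 (SE; edgeR adjusted p = 0.139), which does not pass the threshold. Over the alternatives that kept Il15° replicate 1, the edgeR or DESeq2 adjusted p lay between 0.0125 and 0.288. Without that replicate, the only Il15° library that held this clonotype, it was 0.00912. That alternative leaves only counts of 0 in Il15°, so its lower p adds no support.

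TRAJ9 chains were the other sizeable set, with 72 clonotypes and 685 UMIs spread far more evenly. Their median clonotype held 4 UMIs and the highest 98, and 82.5% of the UMIs ended in NMGYKLTF. The main nucleotide forms of the most abundant pair of clonotypes are shown because they differ at the junction, in a single codon of unmatched bases.
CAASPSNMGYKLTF: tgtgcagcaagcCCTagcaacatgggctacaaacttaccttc
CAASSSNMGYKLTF: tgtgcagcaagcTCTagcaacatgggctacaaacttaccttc
For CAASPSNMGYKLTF wt replicates 1 to 4 held 5, 16, 0 and 0 UMIs, the Il2° libraries 1, 16, 20 and 9 and the Il15° libraries 12, 0, 8 and 11. For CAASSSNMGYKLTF the wt libraries held 2, 6, 0 and 0 UMIs, the Il2° libraries 0, 13, 24 and 10 and the Il15° libraries 0, 7, 0 and 3. For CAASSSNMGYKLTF the log2 fold change of Il2° against wt was 3.23 ± 1.01 (SE; edgeR adjusted p = 0.154), and without Il2° replicate 1 it was 3.66 (edgeR adjusted p = 0.0365), the adjusted p of all alternatives lying between 0.0365 and 0.377.

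As share of the library, TRAV10 with TRAJ9 was at 0.277%, 0.272%, 0.119% and 0.214% in wt replicates 1 to 4. It was at 0.203%, 0.654%, 0.728% and 0.761% in Il2° and at 0.305%, 0.269%, 0.233% and 0.301% in Il15° replicates 1 to 4. Il2° replicates 2, 3 and 4 lay above all other libraries, and Il2° replicate 1 lay within the wt range. The log2 fold change of Il2° against wt was 1.43 ± 0.36 (SE; edgeR adjusted p = 0.0954 over 476 V-J pairs), and that of Il15° against Il2° was -1.03 ± 0.35 (edgeR adjusted p = 0.174). Without Il2° replicate 1 they were 1.65 (edgeR adjusted p = 0.0120) and -1.35 (edgeR adjusted p = 0.0223); over the other alternatives the adjusted p lay between 0.0141 and 0.283 for the first comparison and between 0.0754 and 0.434 for the second. Il2° replicate 1 was linked through sequences found in exactly 2 libraries to wt replicates, with 888 in common with wt replicate 2 and 125 with wt replicate 3. The higher Il2° libraries were linked as well, with 999 such sequences shared by replicates 2 and 3 and 371 by replicates 3 and 4. Il2° replicate 4 also shared 356 with wt replicate 4. The part of these links in the TRAJ9 values was not tested.

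The excess of TRAV10 outside the largest clonotype in Il2° libraries was not carried by TRAJ9 alone. Between the Il2° and wt means, TRAJ9 differed by 0.366 and TRAJ31 without the largest clonotype by 0.186 percentage points. These are points of the whole library, the largest clonotype included in the total. All other J segments together had a mean of 0.706% in wt and 1.01% in Il2° libraries. In these other J segments the wt libraries were at 0.635%, 0.778%, 0.632% and 0.779%. The Il2° libraries were at 0.859%, 0.986%, 0.995% and 1.21%, without overlap. This split by J segment was not tested, and no share over other V segment groups is given for it. With library totals only, the median V segment group had a log2 fold change of 0.27 in Il2° against wt. The TRAJ31 values overlapped between the genotypes.

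**Figure D5:**
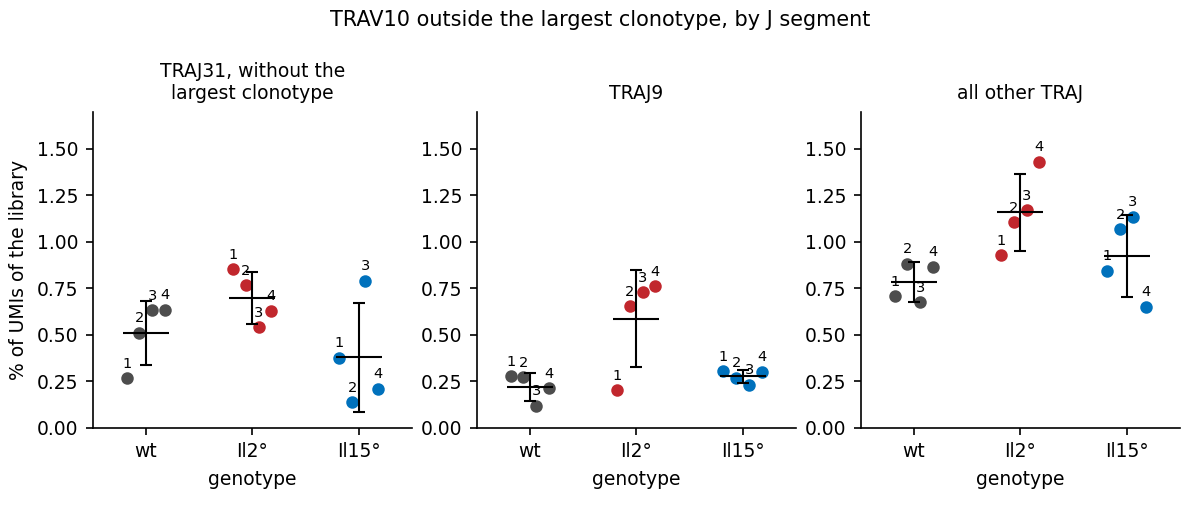
TRAV10 outside the largest clonotype as percent of the UMIs of the library (vertical axes, starting at 0) by genotype (horizontal axes), split into TRAJ31, TRAJ9 and all other J segments. Points are libraries with their replicate number, lines the mean and bars the SD (n = 4). In the panel of all other J segments, TRAJ12 was added to a sum that already held it. Each point there is therefore too high by the TRAJ12 share of its library. In the TRAJ9 panel Il2° replicate 1, at 0.203%, stands below the other 3 Il2° libraries.

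No TRAV10 pair or clonotype passed the test across the whole table. Of 11 TRAV10 V-J pairs tested by edgeR between Il2° and wt, 0 passed after adjustment, where 0.42% of 476 pairs passed. At an unadjusted p under 0.05 there were 2 of the 11, and 61 of the 476. Of 13 tested between Il15° and wt 0 passed, where 0% of 467 passed, with 1 of the 13 and 24 of the 467 at an unadjusted p under 0.05. Of 12 tested between Il15° and Il2° 0 passed, where 0.466% of 429 passed, with 1 of the 12 and 52 of the 429 at an unadjusted p under 0.05. DESeq2 called 1 TRAV10 pair, TRAJ9, among 12 pairs called in all between Il2° and wt, and 0 TRAV10 pairs among 1 and 7 called in the other two comparisons. The median log2 fold change of the TRAV10 pairs was 0.54 in Il2° against wt, where that of all pairs was 0.09. In Il15° against wt these medians were 0.48 and 0.04, and in Il15° against Il2° they were -0.08 and -0.03.

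At the level of clonotypes, 11 of TRAV10 had enough UMIs for the edgeR test between Il2° and wt and 0 passed after adjustment, where 0.203% of 493 clonotypes passed. At an unadjusted p under 0.05 there were 1 of the 11, and 62 of the 493. Between Il15° and wt 0 of 7 passed, where 0% of 527 passed, with 0 of the 7 and 33 of the 527 at an unadjusted p under 0.05. Between Il15° and Il2° 0 of 10 passed, where 0.515% of 388 passed, with 2 of the 10 and 51 of the 388 at an unadjusted p under 0.05. In the same order DESeq2 called 9, 6 and 5 clonotypes in all, of which 0, 0 and 1 were of TRAV10, the last being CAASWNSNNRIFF. limma called 0, 6 and 0 in all and 0 of TRAV10. The largest clonotype had log2 fold changes of 0.42 ± 0.30 for Il2° against wt, 0.40 ± 0.32 for Il15° against wt and 0.00 ± 0.31 for Il15° against Il2° (SE; edgeR adjusted p of at least 0.612). The remaining named clonotypes were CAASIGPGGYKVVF with TRAJ12, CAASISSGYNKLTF with TRAJ11 and a TRAJ15 clonotype whose CDR3 ends in GRALIF, counted with 68, 65 and 63 UMIs in 9, 10 and 12 libraries.

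The make-up of the TRAV10 junctions depended on the largest clonotype, for which TRAV10 was selected, so the values beside other V segments are a description with no test. By UMIs the CDR3 had 1.37 ± 0.309 added bases, the bases between the V and the J part, against 2.09 ± 0.0587 in other V segments, lower in 12 of 12 libraries (SD, n = 12). Without the largest clonotype the direction turned, to 2.83 ± 0.209 added bases, higher in 12 of 12. The mean TRAJ number, which falls with the distance of the J from the V segments, was 26.7 ± 1.27 against 23.4 ± 0.631, higher in 12 of 12 libraries, and turned to 21.7 ± 1.36 without the largest clonotype, lower in 12 of 12. The same turns were seen when each clonotype counted once. CDR3 length was 13.2 ± 0.0775 residues against 13.1 ± 0.0227, higher in 10 of 12 libraries, and 13.4 ± 0.133 without the largest clonotype. Without sequences found in exactly 2 libraries added bases were 1.06 ± 0.362 against 1.91 ± 0.122 and the TRAJ number 27.7 ± 1.35 against 23.2 ± 0.615, in the same direction in 12 of 12 libraries, while CDR3 length was higher in only 8 of 12, by 0.0587 residues in the mean. The largest clonotypes of other V segments were kept in these comparisons.

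Between genotypes none of these measures passed the exact Mann-Whitney test. Mean added bases were 1.34 ± 0.176 in wt, 1.59 ± 0.390 in Il2° and 1.17 ± 0.219 in Il15° libraries (adjusted p = 0.343 for each comparison). The mean TRAJ number was 27.3 ± 1.06, 25.8 ± 1.66 and 27.1 ± 0.593 in the same order (exact adjusted p between 0.514 and 0.886), and CDR3 length differed by at most 0.0901 residues (exact adjusted p = 0.486 for each comparison).

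The copy names split TRAV10 by J segment. Rows named TRAV10 held 6224 UMIs, those named TRAV10N 876 and those named TRAV10D 229. TRAJ31 took 78.8% ± 7.79 of the UMIs of rows named TRAV10 and 4.02% ± 5.14 of those named TRAV10N, and was higher in the former in 12 of 12 libraries. With the largest clonotype left out the values were 41.9% ± 14.6 and 2.60% ± 3.18, again in 12 of 12 libraries. TRAJ9 took 4.62% of rows named TRAV10 and 37.7% of those named TRAV10N by mean. TRAV10D rows were few, between 1 and 41 UMIs per library, with TRAJ31 at 0% to 46.3% of them. TRAV10 is the copy nearest to the J segments and TRAV10D the furthest, and TRAJ31 lies nearer to the V segments than TRAJ9. The part of position in these values was not tested. Without sequences found in exactly 2 libraries TRAJ31 took 84.9% ± 6.93 of rows named TRAV10 and 3.92% ± 6.66 of those named TRAV10N. The comparison of copies was added after seeing the data and was not tested, and it rests on the assignment of copies that are at least 98.3% identical.

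CDR3 residues at positions 4 to 7, counted from the first cysteine as 1, are given first with the largest clonotype included. Serine at position 4 held 82.1% ± 3.89 of wt TRAV10 UMIs, arginine at position 5 68.8% ± 7.99, asparagine at position 6 72.1% ± 7.55 and serine at position 7 72.9% ± 6.39. In Il2° libraries these were 82.6% ± 3.82, 61.7% ± 11.5, 66.1% ± 12.1 and 67.4% ± 11.7, and in Il15° libraries 85.4% ± 4.42, 72.4% ± 7.02, 72.5% ± 6.84 and 74.2% ± 5.04. Of 10 residues tested at these positions, 0 passed the exact Mann-Whitney test in any comparison, 0 had an unadjusted p under 0.05, and the libraries overlapped in all 10. In other V segments the libraries did not overlap for 40.7% of 27 residues between Il2° and wt, 3.7% between Il15° and wt and 18.5% between Il15° and Il2°. There too 0 passed after adjustment. The adjustment ran over all residues and comparisons, so the smallest exact Mann-Whitney p, 0.0286, could pass only where many residues reached it. Without the largest clonotype the same residues stayed the commonest at their positions by mean in each genotype, at lower levels. Serine at position 4 was then at 60.1% ± 10.3 in wt, 65.2% ± 8.35 in Il2° and 62.9% ± 10.3 in Il15° libraries, and arginine at position 5 at 32.0% ± 10.5, 26.8% ± 7.31 and 30.2% ± 10.2. Asparagine at position 6 was at 39.5% ± 8.55, 36.0% ± 11.8 and 29.8% ± 13.2, and serine at position 7 at 41.1% ± 6.10, 38.5% ± 11.3 and 34.1% ± 8.74, in the same order. Of the 27 residues tested without the largest clonotype 0 passed, with 0 at an unadjusted p under 0.05.

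Few TRAV10 clonotypes were public, that is, found in all 4 libraries of a genotype. Of 201 TRAV10 clonotypes seen in wt libraries 12 were public, of 245 in Il2° 12 and of 127 in Il15° 5, or 5.97% (95% Wilson interval 3.45 to 10.1), 4.90% (2.82 to 8.36) and 3.94% (1.69 to 8.89). For other V segments the shares were 7.15%, 5.05% and 6.85%. The few public TRAV10 clonotypes made up most TRAV10 UMIs, 66.9% ± 10.8 for wt, 64.1% ± 12.4 for Il2° and 64.4% ± 5.90 for Il15° libraries (SD, n = 4). Across all 12 libraries 3 clonotypes recurred, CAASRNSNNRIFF and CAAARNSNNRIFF with TRAJ31 and the TRAJ15 clonotype ending in GRALIF, whereas 234 of the 442 were found in 1 library and 133 in exactly 2.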

How the data were processed

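Tcra mRNA of sorted newly developed Treg was sequenced with UMIs. The authors filtered reads by quality, built a consensus for each UMI, kept UMIs with at least 2 reads, assigned V and J segments with MiXCR and exported clonotype tables for VDJtools, with mm10 as the build in the submitters' processing notes; software versions are not given in the sources used here. The deposited tables hold UMI counts per clonotype, the fraction of each clonotype in its library (not used for the tests) and the V and J positions in the CDR3. UMI counts were summed per V segment group, V-J pair and clonotype in Python 3.11.15. Genotypes (4 libraries each) were compared by exact 2-sided Mann-Whitney tests, adjusted over 3 comparisons, and TRAV10 was set beside other V segments by its values in 12 libraries. The exact sign-flip permutation tests planned for the latter were run but their p-values are not reported, because the measures follow the clonotype or the J segments for which TRAV10 was selected. Whole-table fits used edgeR 4.0.16 (glmQLFTest, TMM, features reaching 5 UMIs in 4 or more of 8 libraries, Benjamini-Hochberg), with DESeq2 1.42.0 and limma 3.58.1 (log2 of percent plus 0.01) as alternatives; scripts were tested on simulated data. Added bases are those between the V and J positions given; unmatched bases came from GENCODE M21 segments, found for all 37 TRAJ names. Replicate numbers did not pair libraries (correlations of same-numbered libraries between -0.24 and 0.29).

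Members and lists were chosen with earlier results of these data known. Clonotypes were named if among the 10 with the highest mean share or with adjusted p under 0.05, J segments if they held at least 5% of TRAV10 UMIs in a genotype, and V segment groups by the 3 highest correlations. Rows out of frame or with a stop codon (129 of 7458 TRAV10 UMIs) were left out. A pair of libraries was taken as linked where it shared at least 100 sequences found in exactly 2 libraries, a minimum chosen after seeing the data.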

Additional observations from a re-analysis of the deposited data

Results flagged for a closer look

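Of 54 sets of 4 libraries examined, 4 held a library far from the other 3 by Dixon's criterion, where chance gives about 1 in 20. Il2° replicate 1 had a mean TRAJ number of 28.3, against 24.9 to 25.1 in the other Il2° libraries, and TRAJ31 took 81.3% of its TRAV10 UMIs, against 55.8% to 59.5%. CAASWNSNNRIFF was at 0.0444% of Il15° replicate 1 and at 0 in the other Il15° libraries. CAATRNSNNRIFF was at 0.186% of Il15° replicate 3, against at most 0.0222% in the others.

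TRAV10 rows out of frame or with a stop codon, which no comparison used, held 129 UMIs over the 12 libraries, above the 3 UMIs that a count of 0 allows. TRAJ7 had 31 of them and TRAJ44 29. They made up 0.594% to 3.70% of all TRAV10 UMIs by library, against 3.52% to 5.65% for other V segments.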

How the results depend on the processing

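The share without the largest clonotype kept its direction in Il2° against wt and in Il15° against Il2° under every alternative run. It lost the threshold without sequences in exactly 2 libraries (0.676 and -0.611 percentage points), with the replicate block (0.884 and -0.839; 4 pairs cannot give a p below 0.125), and with 3 against 4 libraries, where it ranged from 0.782 to 1.00 and from -0.989 to -0.727. In Il15° against wt it turned with a library left out (-0.105 to 0.157). The share of distinct clonotypes passed without sequences in exactly 2 libraries (0.559 and -0.523) and rarefied (0.650 and -0.724). In Il15° against wt it turned, as an uncalled difference, to 0.0356 without sequences in exactly 2 libraries and to 0.0283 without single UMIs of sequences that a linked library held with 2 or more, and ranged from -0.153 to 0.0135 with a library left out.

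Each clonotype counted once, and the largest left out, turned TRAV10 against other V segments (added bases 0.332 and 0.741, TRAJ number -2.72 and -1.67). They also turned uncalled differences between genotypes. For Il15° against Il2°, length became 0.0642 and 0.0280 and TRAJ number -0.467 and -0.0406, and added bases became 0.0564 when each clonotype counted once. For Il2° against wt added bases became -0.0740 when each clonotype counted once, and for Il15° against wt 0.00389 without the largest. TRAJ number of Il15° against wt became 0.259 without sequences in exactly 2 libraries, and ranged from -0.587 to 0.237 with a library left out.

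The count of TRAV10 V-J pairs passing was 1 for Il2° against wt by DESeq2 and with no filter, and 0 to 1 with a library left out, there and for Il15° against Il2°. The count of clonotypes was 1 with at least 2 UMIs in 4 libraries for Il2° against wt, and for Il15° against Il2° by DESeq2, with at least 2 UMIs, with the replicate block and with CDR3 by nucleotides; it was 0 to 1 with a library left out in both. The block changed no other call. TRAV10 among V segment groups, Il15° against Il2°, became 0.0457 (log2) in one fit on all 12 libraries, and -0.226 to 0.0476 with a library left out.

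Uncalled log2 fold changes of Il15° against Il2° near 0 also turned. The largest clonotype was at -0.0353 (DESeq2), -0.00733 (no TMM), -0.00195 (at least 2 UMIs), -0.0719 (without sequences in exactly 2 libraries) and -0.00883 (without linked single UMIs), and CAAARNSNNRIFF at 0.21 without sequences in exactly 2 libraries. With a library left out, the values that turned ranged from -0.33 to 0.15 for TRAJ31, -0.13 to 0.25 for the largest clonotype, -0.72 to 0.10 for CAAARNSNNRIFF, -0.45 to 0.15 for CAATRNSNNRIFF, -1.24 to 0.37 for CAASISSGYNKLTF and, in Il2° against wt, -0.67 to 0.17 for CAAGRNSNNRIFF. The cause of these changes was not tested. Of the values of the main comparisons under alternatives, 428 kept their direction and their side of the threshold, 20 lost the threshold, 4 gained it, 23 turned and 11 counts moved. Depth limited single clonotypes, since most held few UMIs per library.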
